A study of Capra hircus with 12 samples.

Results

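GREB1, F13A1, SMOC1, SPP1, CDH2, ASIP, NR2F2, PPL and ABI3BP are genes whose RNA levels separated cells of the 2 cartilage layers of the goat temporomandibular joint (TMJ). They are 9 of the 28910 genes in the count tables. They were chosen by their large differences between cells of the middle layer cartilage (MLC) and of the superficial layer cartilage (SLC) in the libraries labelled IL-1β, with no threshold stated. The layer difference in those libraries is therefore given as a description, without a test. The same difference was tested in the libraries labelled IL-1β + LOXL2, which are not those of the contrast that chose the genes.

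The condylar cartilage of the TMJ is a fibrocartilage, in which a superficial layer rich in type I collagen covers deeper layers where chondrocytes lay down type II collagen and aggrecan. IL-1β is a cytokine that drives inflammation and matrix breakdown in cartilage cells, and LOXL2 is a secreted enzyme that crosslinks collagen and elastin. Genes that differ between cartilage layers include matrix proteins, adhesion molecules and transcription factors that are commonly used to tell fibroblast-like from chondrocyte-like cells.

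Polyadenylated RNA of cultured goat cells was sequenced in 12 libraries, 3 in each of 4 groups. The groups were SLC cells with IL-1β, SLC cells with IL-1β and LOXL2, MLC cells with IL-1β, and MLC cells with IL-1β and LOXL2, so that every group received IL-1β. According to the study's methods, the cells came from joints of female goats obtained from abattoirs, were passaged in culture, and received LOXL2 from an adenovirus. An empty adenovirus is named for goat cells in the flow cytometry methods, but the culture methods do not state whether the sequenced cells with IL-1β alone received it, so LOXL2 and the virus cannot be told apart here. Each layer was isolated and grown as its own culture, and layer and culture cannot be told apart either. The replicates are not stated to be separate animals, and the p-values measure the spread between these libraries. In RNA from whole cultures, fewer cells of a type and less RNA per cell cannot be told apart.

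The SLC libraries held 18751323, 22123593 and 19728437 counts with IL-1β and 21080134, 28931652 and 22249738 with IL-1β + LOXL2. In MLC they held 14158607, 15330697 and 14976796 counts with IL-1β and 19459045, 14188227 and 18886663 with IL-1β + LOXL2. Levels are given as CPM, counts scaled to a common library size with edgeR's TMM factors over the 12 libraries, either for replicates in order of their number or as mean ± SD of 3 libraries.

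The first IL-1β + LOXL2 replicate of SLC stood apart from its group, with a median absolute log2 difference of 0.41 from the other libraries of the group, against 0.35 and 0.12 for the second and the third. The MLC replicates of IL-1β + LOXL2 had 0.25, 0.12 and 0.20, so that the first was less set apart. The deviations of these 2 libraries from their groups had a correlation of 0.61 over genes, which do not count as independent replicates. The layer differences of the 9 genes are given with and without each of them, and fits that left out a library are given for other results where they changed a call. The goat LOXL2 gene had no higher level under the label IL-1β + LOXL2. Its level was 625 ± 10.2 CPM (SD, n = 3) with IL-1β and 519.7 ± 53.7 CPM (SD, n = 3) in the other SLC group, and 818 ± 52.6 CPM and 785 ± 36.1 CPM (SD, n = 3) in MLC. Directions given for LOXL2 rest on the labels, since whether viral transcripts would map to the goat gene is not known.

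Markers of the labelled cells were present in part. SOX9, the transcription factor that directs chondrocyte identity, had 21.3 CPM in SLC and 86.7 CPM in MLC with IL-1β. COL2A1 and COL9A1, collagens of hyaline cartilage, had no count in the SLC libraries with IL-1β, against means of 16.6 and 14.0 CPM in MLC. MATN1, a cartilage matrilin, had no count in any library, nor did TNMD, a marker of fibrous tissue. PRG4, which encodes the lubricant of the joint surface, had 4.41 CPM in SLC and 5.96 CPM in MLC with IL-1β, so that this marker of the joint surface did not set SLC apart.

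Of the 9 genes, 5 were higher in MLC and 4 in SLC. MLC cells held more RNA for the secreted proteins SMOC1 and SPP1, the transglutaminase subunit F13A1, the adhesion protein CDH2 and the estrogen-responsive gene GREB1. SLC cells held more RNA for the secreted proteins ABI3BP and ASIP, the junction protein PPL and the nuclear receptor NR2F2. The fold differences ranged from 5.32 for CDH2 to 515 for F13A1 in the libraries labelled IL-1β + LOXL2. All 9 genes are protein-coding in the annotation of ARS1.2, and each lies on a different chromosome.

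SMOC1 (chromosome 10, 21381095 to 21524601) encodes a secreted calcium-binding matrix protein of the SPARC family that modulates BMP signaling. Its SLC levels were 12.1, 12.6 and 11.8 CPM with IL-1β and 10.3, 10.6 and 11.4 CPM with IL-1β + LOXL2. Its MLC levels were 102, 116 and 104 CPM with IL-1β and 107, 109 and 97.0 CPM with IL-1β + LOXL2. Every MLC library was above every SLC library, the 2 MLC groups overlapped, and the 2 SLC groups did not. In order of level, the groups were MLC with IL-1β (107 ± 7.62 CPM), MLC with IL-1β + LOXL2 (104 ± 6.34), SLC with IL-1β (12.1 ± 0.420) and SLC with IL-1β + LOXL2 (10.8 ± 0.538). The log2 fold change of MLC over SLC was 3.15 with IL-1β. With IL-1β + LOXL2 it was 3.28 (standard error 0.12, 95% interval from 2.99 to 3.57, higher in all 3 MLC libraries). Its p, from the quasi-likelihood test of edgeR and adjusted by Benjamini-Hochberg as for all tests below, was 4.70e-05.

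SPP1 (chromosome 6, 37214501 to 37221482) encodes osteopontin, a secreted phosphoprotein that binds integrins and mineral. In SLC it had 12.8, 13.9 and 14.4 CPM with IL-1β and 19.9, 12.3 and 14.1 CPM with IL-1β + LOXL2. In MLC it had 98.3, 99.0 and 97.3 CPM with IL-1β and 102.5, 101.7 and 101.7 CPM with IL-1β + LOXL2. The layers did not overlap, and the first IL-1β + LOXL2 replicate of SLC was the highest of the 6 SLC libraries. The order was MLC with IL-1β + LOXL2 (102 ± 0.439 CPM), MLC with IL-1β (98.2 ± 0.867), SLC with IL-1β + LOXL2 (15.4 ± 3.95) and SLC with IL-1β (13.7 ± 0.828), and the last pair overlapped. SPP1 was higher in MLC by a log2 fold change of 2.86 with IL-1β. The tested difference with IL-1β + LOXL2 was 2.73 (standard error 0.20, interval from 2.27 to 3.20, adjusted p = 0.000297 from edgeR).

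F13A1 (chromosome 23, 16707927 to 16848171) encodes the A subunit of coagulation factor XIII, a transglutaminase that crosslinks fibrin and matrix proteins and is also made in cartilage. It was near the limit of detection in SLC, with 0.623, 0.756 and 0.793 CPM with IL-1β and 0.365, 0.369 and 0.362 CPM with IL-1β + LOXL2. The MLC levels were 282, 202 and 267 CPM with IL-1β and 225, 169 and 178 CPM with IL-1β + LOXL2. The layers were far apart, the SLC groups did not overlap, and the MLC groups did. From highest to lowest, the means were 250.4 ± 42.8 CPM in MLC with IL-1β, 190.4 ± 30.1 in MLC with IL-1β + LOXL2, 0.724 ± 0.0898 in SLC with IL-1β and 0.365 ± 0.00337 in SLC with IL-1β + LOXL2. The SLC values rest on 45 counts in 3 libraries with IL-1β and 26 with IL-1β + LOXL2. MLC exceeded SLC by a log2 fold change of 8.43 with IL-1β and, in the tested libraries with IL-1β + LOXL2, 9.01 (standard error 0.21, interval from 8.52 to 9.50, adjusted p = 3.97e-06 from edgeR). The ratio of summed counts in the tested libraries, corrected for depth, was 527 with an exact 95% counting interval from 359.7 to 808.

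ABI3BP (chromosome 1, 44940399 to 45232018) encodes a secreted matrix protein with fibronectin type III repeats. Its SLC levels were 259.8, 239 and 225 CPM with IL-1β and 195, 119.5 and 136 CPM with IL-1β + LOXL2. The MLC levels were 38.3, 37.6 and 33.5 CPM with IL-1β and 33.5, 23.5 and 20.9 CPM with IL-1β + LOXL2. All SLC libraries were above all MLC libraries, and within each layer the libraries with IL-1β + LOXL2 lay below those with IL-1β, by a narrow gap in MLC. The 4 groups came in the order SLC with IL-1β (241 ± 17.3 CPM), SLC with IL-1β + LOXL2 (150.3 ± 40.0), MLC with IL-1β (36.5 ± 2.57) and MLC with IL-1β + LOXL2 (25.9 ± 6.63). The log2 fold change of MLC over SLC was -2.71 with IL-1β. It was -2.53 with IL-1β + LOXL2 (standard error 0.26, interval from -3.13 to -1.93, adjusted p = 0.000850 from edgeR). ABI3BP overlaps another annotated gene, LOC102182631, and how reads in the overlap were counted is not stated.

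ASIP (chromosome 13, 63228709 to 63249542) encodes the agouti signaling protein, a secreted antagonist of melanocortin receptors best known for its effect on coat color. In SLC it had 71.9, 69.2 and 86.6 CPM with IL-1β and 93.6, 209 and 140.4 CPM with IL-1β + LOXL2. In MLC it was near the limit of detection, with 0.282, 0.261 and 0.465 CPM with IL-1β and 0.465, 0.498 and 0.381 CPM with IL-1β + LOXL2. The SLC groups did not overlap, the second replicate of IL-1β + LOXL2 was the highest, and the MLC groups overlapped. The group means were 148 ± 58.3 CPM in SLC with IL-1β + LOXL2, 75.9 ± 9.35 in SLC with IL-1β, 0.448 ± 0.0601 in MLC with IL-1β + LOXL2 and 0.336 ± 0.112 in MLC with IL-1β. The MLC values rest on 23 and 15 counts in 3 libraries each. The layer difference was -7.78 on the log2 scale with IL-1β and -8.34 with IL-1β + LOXL2 (standard error 0.40, interval from -9.28 to -7.41, adjusted p = 7.27e-05 from edgeR). The ratio of summed counts in the tested libraries was 343 (exact 95% counting interval from 228 to 541).

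**Figure D1:**
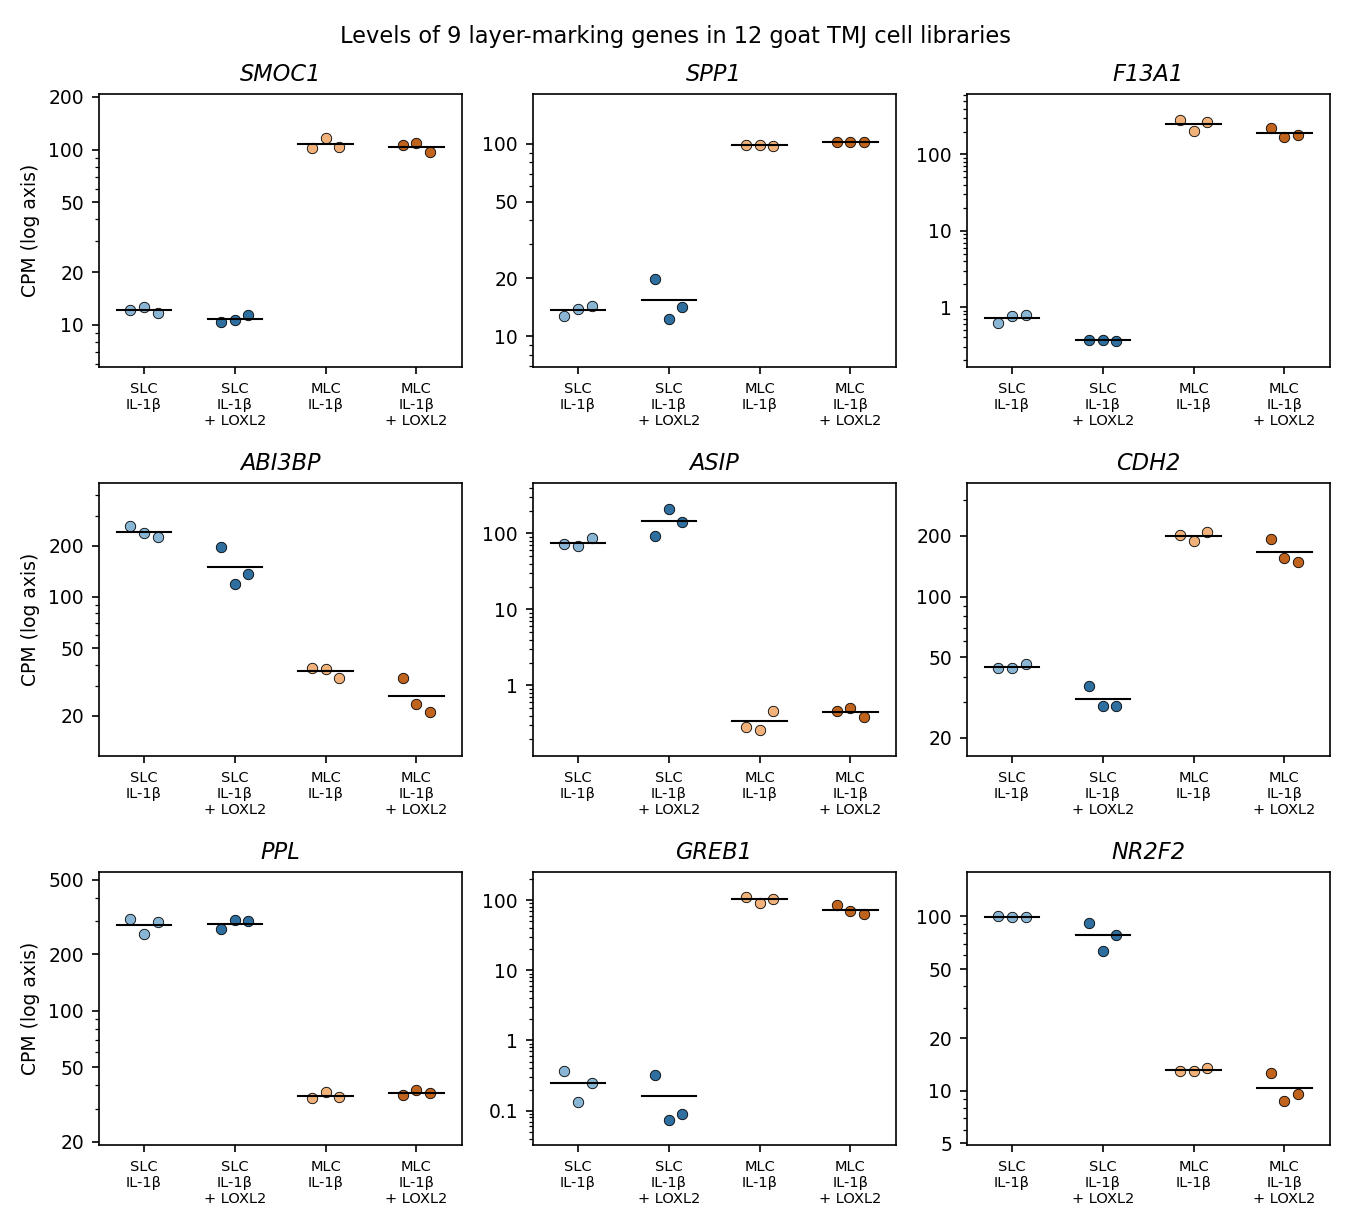
Level of each of the 9 genes in CPM on a log axis, with 1 point for each of 12 libraries and a line at the mean of each group of 3. For each gene, the 6 libraries of 1 layer sit above the 6 libraries of the other.

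CDH2 (chromosome 24, 28983264 to 29226875) encodes N-cadherin, a calcium-dependent adhesion protein of mesenchymal cells that takes part in the condensation of cartilage precursors. Its SLC levels were 44.3, 44.4 and 46.4 CPM with IL-1β and 36.2, 28.7 and 28.7 CPM with IL-1β + LOXL2. In MLC they were 202, 189 and 207 CPM with IL-1β and 192, 156 and 149 CPM with IL-1β + LOXL2. The layers were separate, the SLC groups were separate, and the MLC groups overlapped through the first IL-1β + LOXL2 replicate. The means came in the order MLC with IL-1β (199 ± 9.53 CPM), MLC with IL-1β + LOXL2 (165 ± 23.5), SLC with IL-1β (45.0 ± 1.15) and SLC with IL-1β + LOXL2 (31.2 ± 4.35). The log2 fold change of MLC over SLC was 2.16 with IL-1β and 2.41 with IL-1β + LOXL2 (standard error 0.17, interval from 2.03 to 2.80, adjusted p = 0.000251 from edgeR). CDH2 overlaps the annotated gene LOC102176929.

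PPL (chromosome 25, 3866597 to 3914301) encodes periplakin, a plakin that links intermediate filaments to cell junctions and is best known from stratified epithelia. SLC libraries had 309.9, 257 and 299 CPM with IL-1β and 273, 305 and 299.6 CPM with IL-1β + LOXL2. MLC libraries had 34.2, 36.9 and 34.7 CPM with IL-1β and 35.4, 37.7 and 36.4 CPM with IL-1β + LOXL2. The layers were separate, and the treatments overlapped in both. The means were 292 ± 17.2 CPM in SLC with IL-1β + LOXL2, 289 ± 28.2 in SLC with IL-1β, 36.5 ± 1.17 in MLC with IL-1β + LOXL2 and 35.3 ± 1.41 in MLC with IL-1β. PPL was lower in MLC by a log2 fold change of -3.02 with IL-1β. In the tested libraries the value was -2.99 (standard error 0.11, interval from -3.25 to -2.73, adjusted p = 4.70e-05 from edgeR).

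NR2F2 (chromosome 21, 9814490 to 9828084) encodes COUP-TFII, a nuclear receptor that acts in mesenchymal and vascular development. SLC levels were 100.2, 99.9 and 99.7 CPM with IL-1β and 91.8, 63.7 and 78.2 CPM with IL-1β + LOXL2. MLC levels were 13.1, 13.1 and 13.5 CPM with IL-1β and 12.6, 8.81 and 9.64 CPM with IL-1β + LOXL2. No groups overlapped, and in both layers the first IL-1β + LOXL2 replicate lay nearest to the libraries with IL-1β. The order was SLC with IL-1β (99.9 ± 0.261 CPM), SLC with IL-1β + LOXL2 (77.9 ± 14.0), MLC with IL-1β (13.2 ± 0.224) and MLC with IL-1β + LOXL2 (10.4 ± 1.9999). The layer difference was -2.91 on the log2 scale with IL-1β and -2.90 with IL-1β + LOXL2 (standard error 0.21, interval from -3.38 to -2.42, adjusted p = 0.000289 from edgeR).

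GREB1 (chromosome 11, 85826492 to 85955421) is a gene induced by estrogen receptors whose protein acts as a cofactor of steroid receptors. In SLC it had 0.363, 0.133 and 0.248 CPM with IL-1β and 0.320, 0.0738 and 0.0905 CPM with IL-1β + LOXL2. In MLC it had 111, 92.5 and 104 CPM with IL-1β and 85.1, 70.3 and 63.2 CPM with IL-1β + LOXL2. The MLC groups did not overlap, and the SLC groups, which rest on 15 and 11 counts, did. The order was MLC with IL-1β (102 ± 9.39 CPM), MLC with IL-1β + LOXL2 (72.8 ± 11.2), SLC with IL-1β (0.248 ± 0.115) and SLC with IL-1β + LOXL2 (0.161 ± 0.137). The log2 fold change of MLC over SLC was 8.69 with IL-1β and 8.83 with IL-1β + LOXL2 (standard error 0.36, interval from 7.98 to 9.67, adjusted p = 6.49e-05 from edgeR). The ratio of summed counts in the tested libraries was 474 (exact 95% counting interval from 264 to 949.8).

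In the libraries with IL-1β, all 9 genes had layers that did not overlap, as did 55.9% of the 13965 genes tested there, a contrast that chose the genes and from which nothing is read. Ranked by absolute log2 fold change in that contrast, GREB1 was at place 10, F13A1 at 12, ASIP at 18, SMOC1 at 165, PPL at 184, NR2F2 at 201, SPP1 at 207, ABI3BP at 231 and CDH2 at 373. In the libraries with IL-1β + LOXL2, the layers did not overlap for 9 of 9 genes, against 35.0% of 14085 genes tested. The 9 genes had an adjusted p under 0.05 there, against 16.1% of all genes, which were 2268 in number. The 5 genes higher in MLC stood against 9.27% of genes higher in MLC past the threshold, and the 4 higher in SLC against 6.83%. GREB1, F13A1 and ASIP passed the filter on low counts only through the layer where they were high and so had to differ, and the count of 9 is no support for the choice of the genes.

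The direction and the call of each of the 9 genes held in every alternative in which it was tested, the 3 genes near the limit of detection not being tested with a minimum of 10 counts in every library. Without the first IL-1β + LOXL2 replicate of SLC, the log2 fold changes were 9.72 for GREB1, 9.02 for F13A1, 3.26 for SMOC1, 2.97 for SPP1 and 2.54 for CDH2. They were -8.58 for ASIP, -2.75 for NR2F2, -3.03 for PPL and -2.28 for ABI3BP. With the first IL-1β + LOXL2 replicate of MLC left out, they were 8.70 for GREB1, 8.88 for F13A1, 3.27 for SMOC1, 2.73 for SPP1, 2.30 for CDH2, -8.38 for ASIP, -3.06 for NR2F2, -2.96 for PPL and -2.75 for ABI3BP. The largest adjusted p of any of the 9 genes with 1 library left out was 0.00958, for ABI3BP. The number of all genes past the threshold depended more on single libraries. It was 4679 without the first SLC replicate and 1155 without the third, and 1408, 1140 and 1207 without the first, the second and the third MLC replicate. With the replicate number as a block it was 3887, and all 9 genes passed. The block was fitted because libraries with the same number in the 2 layers were related, mostly through the first (0.61, against 0.21 and 0.17). The second SLC library matched the third MLC library best, so pairing by number is uncertain for it.

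**Figure D2:**
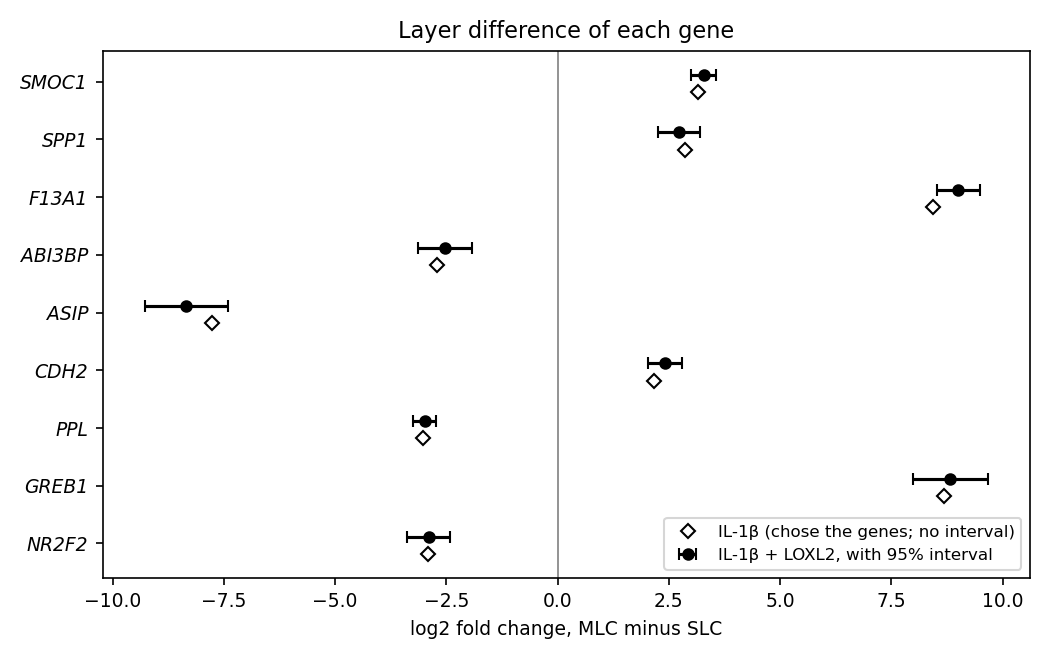
Log2 fold change of MLC over SLC for each of the 9 genes, with the tested libraries (IL-1β + LOXL2, 3 per layer) as filled points with the 95% interval of the fit and the libraries that chose the genes (IL-1β) as open points without one. Values with IL-1β + LOXL2 range from -8.34 for ASIP to 9.01 for F13A1.

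Genes with the profiles most like those of the 9 over the 12 libraries were also read, some close and some not. The measure was the root mean square difference between log2 CPM profiles centred on their means, among 12280 genes, and the 2 nearest genes of each were taken. GREB1 and F13A1 were nearest to each other (0.42), followed for both by COL2A1 (0.75 and 0.76), the main collagen of hyaline cartilage. COL2A1 had 858 counts in MLC and 1 in SLC in the libraries with IL-1β + LOXL2, a ratio of 1178 with a counting interval from 211 to 46598. Nearest to SMOC1 were PTGS1 (0.15), which encodes cyclooxygenase 1, and LSAMP (0.18), a cell surface protein of the immunoglobulin family. PTGS1 had 13.7 ± 0.755 CPM in MLC and 1.25 ± 0.169 CPM in SLC with IL-1β + LOXL2 (log2 fold change 3.46, standard error 0.19, adjusted p = 9.49e-05 from edgeR). LSAMP had 6.73 ± 0.344 and 0.637 ± 0.136 CPM. Nearest to SPP1 were PPP1R14C (0.18), a phosphatase inhibitor with 28 counts in MLC and 1 in SLC (ratio 38.5, counting interval from 6.36 to 1572), and PRSS35 (0.19), a serine protease homolog with 109 ± 17.3 and 19.1 ± 4.78 CPM. PPP1R14C had group means of at most 0.697 CPM, a level at which the prior count of 2 in the log2 CPM profiles makes differences smaller. Its log2 fold change was 4.76, from 4.22 to 6.47 with 1 library left out, against 2.73 for SPP1. Nearest to CDH2 were P3H2 (0.17), a collagen prolyl hydroxylase with 48.7 ± 7.81 CPM in MLC and 10.2 ± 1.89 in SLC, and SHC3 (0.17), a signaling adaptor with 16.6 ± 0.666 and 3.26 ± 0.633 CPM.

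Among genes higher in SLC, ASIP was nearest to DLX6 (0.85) and PAX7 (1.31), transcription factors of craniofacial and of muscle and neural crest development. DLX6 had 926 counts in SLC and 3 in MLC with IL-1β + LOXL2, a ratio of 225 with a counting interval from 76.7 to 1092 and a log2 fold change from -8.48 to -7.23 with 1 library left out. PAX7 had 10.7 ± 0.918 CPM in SLC and 0.141 ± 0.131 in MLC (log2 fold change -6.07, standard error 0.45, adjusted p = 0.000297 from edgeR, log2 fold change from -6.76 to -5.61 with 1 library left out). Nearest to NR2F2 were RIMS3 (0.17), a gene of vesicle release, and ADAMTSL1 (0.21), a secreted matrix protein, with 21.3 ± 3.47 and 23.3 ± 9.20 CPM in SLC and 2.92 ± 1.04 and 2.97 ± 0.896 in MLC. PPL was nearest to MFAP5 (0.21), a protein of elastic microfibrils, and PARVB (0.22), a protein of focal adhesions. MFAP5 had 265 ± 5.16 CPM in SLC and 33.9 ± 4.33 in MLC (log2 fold change -2.96, standard error 0.14, adjusted p = 6.80e-05 from edgeR), and PARVB had 25.9 ± 2.76 and 3.28 ± 0.893. Nearest to ABI3BP were ABCC9 (0.17), a subunit of potassium channels, with 34.6 ± 14.4 and 5.64 ± 2.11 CPM, and CACNA1C (0.18), a calcium channel subunit, with 17.6 ± 5.60 and 2.83 ± 0.431 CPM. The neighbors were taken by likeness to genes chosen for their layer difference, so that their own layer differences followed from the way they were taken.

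Relatives of the secreted proteins gave a mixed picture in the libraries with IL-1β + LOXL2, where the median log2 fold change of MLC over SLC over all genes tested was -0.03. Of the SPARC family, 5 genes other than SMOC1 were tested, 2 were higher in MLC and none in SLC, and the median was 0.27. These were SPOCK1, a testican proteoglycan (log2 fold change 1.46, standard error 0.16, adjusted p = 0.00106 from edgeR), and SMOC2, the closest relative of SMOC1 (1.30, standard error 0.13, adjusted p = 0.000728 from edgeR). Of the phosphoproteins of the osteopontin family other than SPP1, none had enough counts to be tested. IBSP, or bone sialoprotein, had 27 counts in MLC and 4 in SLC with IL-1β, and 34 and 5 with IL-1β + LOXL2. Of 9 tested receptors of osteopontin, 1 was higher in MLC, 2 were higher in SLC, and the median was 0.22. The integrin gene ITGA4 was higher in MLC (2.01, standard error 0.34), and ITGB3 (-1.96, standard error 0.34) and ITGB5 (-0.84, standard error 0.13) were higher in SLC. The count higher in MLC was 5 when the first IL-1β + LOXL2 replicate of SLC was left out and 2 without the second or the third.

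Among transglutaminases, TGM1 alone was tested besides F13A1 and did not pass (log2 fold change 1.08). A transglutaminase gene was higher in MLC in 1 fit, which left out the first IL-1β + LOXL2 replicate of SLC. F13B, which encodes the carrier subunit of factor XIII in plasma, had no count in any library. Of 4 tested melanocortin genes other than ASIP, none was higher in MLC, 1 was higher in SLC, and the median was -0.08. That gene was ATRNL1, a relative of the agouti co-receptor attractin (-2.73, standard error 0.39, adjusted p = 0.00329 from edgeR), which passed the filter on low counts only through SLC (138 counts, against 15 in MLC) and so could be called in no other direction. Its log2 fold change ranged from -3.33 to -2.43 with 1 library left out. MC1R, the receptor that ASIP blocks in skin, was written in the list but not found under a single name, and was not analysed. The receptor genes MC2R and MC4R had no count, and MC3R and MC5R had group means of at most 0.0673 CPM. Of 7 other matrix proteins with fibronectin type III repeats, 4 were higher in MLC and 1 in SLC, with a median of 1.13. TNXB was higher in SLC (-2.32, standard error 0.38), having passed the filter on low counts only through that layer (91 counts, against 13), and TNN (1.85, standard error 0.28) and COL12A1 (1.73, standard error 0.29) were higher in MLC. The count higher in MLC was 2 without the third SLC replicate or the first or second IL-1β + LOXL2 replicate of MLC.

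Of 9 cadherins and catenins other than CDH2, none was higher in MLC, 2 were higher in SLC, and the median was -0.43. CDH4, or R-cadherin, was higher in SLC (log2 fold change -1.78, standard error 0.32, adjusted p = 0.00846 from edgeR), as was JUP, or plakoglobin (-0.39, standard error 0.11, adjusted p = 0.0488 from edgeR). Of 4 tested plakin and desmosome genes other than PPL, PLEC was higher in MLC (0.75, standard error 0.20, adjusted p = 0.0414 from edgeR), JUP was higher in SLC, and the median was -0.11. The calls of PLEC and JUP changed with the libraries used while the folds moved less (0.62 to 1.01 for PLEC and -0.44 to -0.35 for JUP), with an adjusted p from 0.000334 to 0.157 for PLEC and from 0.0267 to 0.190 for JUP over the 6 fits that each left out 1 library, of which each gene passed in 1, the one without the first SLC replicate. In that fit 1 cadherin or catenin gene and 2 plakin or desmosome genes were higher in MLC. The cadherin count higher in SLC was 3 in that fit and 1 without the third SLC replicate or any 1 of the MLC replicates. JUP also missed the threshold with DESeq2's size factors, with no filter and with the stricter filter (adjusted p from 0.0502 to 0.0776). EVPL, the partner of periplakin in epithelia, had group means of at most 0.168 CPM. DSP, or desmoplakin, was not tested in these libraries and had 49 counts in MLC and 2 in SLC, and 87 and 3 with IL-1β.

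Of 8 nuclear receptors and cofactors around NR2F2, NR2F1, its closest relative, was higher in SLC (log2 fold change -1.72, standard error 0.12, adjusted p = 0.000249 from edgeR), none was higher in MLC, and the median was -0.18. A second gene of this group was higher in SLC without the first IL-1β + LOXL2 replicate of SLC, which made 2. Of 5 genes around GREB1, namely its relative and steroid or estrogen-related receptors, ESR1 was higher in MLC (1.96, standard error 0.23, adjusted p = 0.00140 from edgeR), none was higher in SLC, and the median was -0.10. ESR1, which encodes estrogen receptor alpha, had 26.2 ± 5.98 CPM in MLC and 6.59 ± 0.701 CPM in SLC with IL-1β, and 16.5 ± 2.87 and 4.24 ± 1.01 CPM with IL-1β + LOXL2. The relative GREB1L had its higher means in SLC, with a log2 fold change of -0.80 that did not pass.

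Most tested chondrocyte markers moved with the genes higher in MLC. Of 11 tested, 8 were higher in MLC with IL-1β + LOXL2, against 9.27% of all genes. None was higher in SLC, and the median log2 fold change was 1.45. SOX6 (0.88), COL11A1 (0.26) and COL9A3 (-0.77) did not pass. COL9A1 (9.74, with 887 counts in MLC and 1 in SLC, a ratio of 1218 with a counting interval from 218 to 48171), COL2A1 (9.66) and ACAN, the core protein of aggrecan (3.12, standard error 0.26, adjusted p = 0.000439 from edgeR), differed most among those that passed. COL2A1 and COL9A1 passed the filter on low counts only through MLC and so had to differ, and the count of 8 includes them. With 1 library left out, their log2 fold changes ranged from 9.34 to 11.36 for COL9A1 and from 9.12 to 11.36 for COL2A1. The summed level of the list had a lowest, median and highest value of 1340, 1416 and 1467 CPM in SLC with IL-1β, and of 1813, 1958 and 1973 CPM in MLC. With IL-1β + LOXL2 these were 762, 972 and 1329 CPM in SLC and 1527, 1646 and 1921 CPM in MLC. COL11A1 had the most counts of the list (71.3% of the sum) and COMP the most per kilobase of gene span. The count of chondrocyte markers higher in MLC ranged from 6 to 10 over the 6 fits that each left out 1 library. A chondrocyte marker was higher in SLC, 1 in number, without the first SLC replicate. The part of chondrocyte markers in the differences of the 9 genes was not tested.

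Markers of the superficial fibrous layer did not move as a group with the genes higher in SLC. Of 8 tested, 3 were higher in MLC, 1 was higher in SLC, and the median was 0.28. CILP (log2 fold change 2.51), on 35 and 8 counts and past the filter on low counts only through MLC, and MKX, a tendon transcription factor (1.09, standard error 0.21), were higher in MLC, and THBS4, a thrombospondin of tendon (-1.05, standard error 0.15, adjusted p = 0.00327 from edgeR), was higher in SLC. The log2 fold change of CILP ranged from 2.04 to 3.33, and the adjusted p ranged from 0.0254 to 0.114 for CILP and from 0.000680 to 0.0552 for MKX over the fits without 1 library. CILP did not pass without the second SLC replicate or any 1 of the MLC replicates, nor did MKX without the third SLC replicate or the first or second MLC replicate. The remaining marker higher in MLC was the collagen gene COL3A1, which was far more abundant than CILP and MKX. With IL-1β + LOXL2 it had 18268 ± 1265 CPM in MLC and 9901 ± 584 CPM in SLC. In edgeR's fit COL3A1 passed at an adjusted p of 0.00409, for a layer difference of 0.89 on the log2 scale. Its call in the fits without 1 library was not read. The count higher in MLC was 1 without the first or the second MLC replicate. The summed level, of which COL1A1 made 51.2% and was the top gene per kilobase too, was 69164, 69662 and 70855 CPM in SLC with IL-1β, 67288, 68262 and 69296 in MLC with IL-1β, 60269, 66790 and 69854 in SLC with IL-1β + LOXL2, and 67143, 70088 and 72010 in MLC with IL-1β + LOXL2.

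Lists of other cell types were read because F13A1, PPL and SPP1 also mark cells outside cartilage and ASIP is known for its effect on coat color. ASIP is not itself in the melanocyte list. F13A1 is used as a macrophage marker and made 54.4% of the summed level of that list. PTPRC, TYROBP, AIF1, MRC1, ITGAM, C1QA, C1QB and C1QC, which define leukocytes or macrophages, stayed under 1 CPM in every library, with no count of C1QA and C1QB. The sum of the list ranged from 56.0 to 96.8 CPM over the 6 SLC libraries and from 262 to 378 CPM over the 6 MLC libraries, and without F13A1 its group means were 85.0 and 76.4 CPM in SLC and 114 and 94.4 CPM in MLC. CD14, the top gene of the list per kilobase, had means of 77.1 and 65.3 CPM in SLC with IL-1β and with IL-1β + LOXL2. In MLC it had 107 and 86.4 CPM. In the same order, CD68 had 5.78 and 9.60 CPM in SLC and 5.42 and 6.45 CPM in MLC. CSF1R had 1.62 and 1.25 CPM in SLC and 1.34 and 1.18 CPM in MLC. CD163 and LYZ, also written in the list, were not found under a single name. None of 3 other tested genes of the list passed, and the median was -0.09. In the fit that left out the first IL-1β + LOXL2 replicate of SLC, 1 was higher in SLC.

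PPL made 96.5% of the summed level of the epithelial list and was its top gene per kilobase, with KRT5 at 0 and KRT8, KRT18, CDH1, TP63 and EVPL under 1 CPM in every library. EPCAM, also of this list and not tested, had 36 and 31 counts in SLC with IL-1β and with IL-1β + LOXL2, and 5 and 5 in MLC. The sum ranged from 258 to 311 CPM in SLC and from 44.5 to 51.7 CPM in MLC. KRT14, a keratin of basal epithelial cells and the 1 other gene tested, was higher in MLC and not in SLC (log2 fold change 5.64, standard error 0.53, adjusted p = 0.000632 from edgeR), with 568 counts in MLC and 15 in SLC. KRT14, like PAX7 in the skeletal muscle list, passed the filter on low counts only through its high layer and so had to differ. The melanocyte enzymes TYR and DCT and the antigen MLANA had no count. Of the 2 tested genes of the melanocyte list, MITF, a transcription factor found also outside melanocytes, was higher in SLC (-1.03, standard error 0.19), none was higher in MLC, and the median was -0.57. MITF did not pass without the second or the third MLC replicate (adjusted p from 0.00398 to 0.0566 over the fits without 1 library). It made 86.4% of a sum that ranged from 34.8 to 51.0 CPM in SLC and from 18.9 to 28.0 CPM in MLC, with PMEL as the top gene per kilobase.

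SPP1 had the most counts of the osteoblast list, 64.7% of its sum, and the most per kilobase, with DMP1 at 0 and SP7, IBSP and PHEX under 1 CPM in every library, IBSP with more counts in MLC as given above. The sum ranged from 40.8 to 56.1 CPM in SLC and from 124 to 131 CPM in MLC, and without SPP1 its group means were 38.6 and 31.5 CPM in SLC and 28.2 and 26.8 CPM in MLC. None of 4 other tested genes passed in either direction, with a median of -0.13. The count higher in MLC was 1 without the first or the third and 2 without the second IL-1β + LOXL2 replicate of SLC, and the count higher in SLC was 1 without the first. Of 4 tested hypertrophic chondrocyte genes, PTH1R, the parathyroid hormone receptor, was higher in MLC (2.94, standard error 0.43, adjusted p = 0.00376 from edgeR), the layer through which alone it passed the filter on low counts (58 counts, against 10), none was higher in SLC, and the median was 0.80. RUNX2 made 81.4% of the sum, which ranged from 28.6 to 39.9 CPM in SLC and from 25.6 to 39.3 CPM in MLC. COL10A1 and IHH stayed under 1 CPM, and MMP13 was the top gene per kilobase. The count higher in MLC was 2 without the first or second SLC replicate, and 1 gene was higher in SLC without the first.

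Of 6 tested genes of smooth muscle and pericytes, 2 were higher in SLC, none was higher in MLC, and the median was -0.10. These were PDGFRB (log2 fold change -0.74, standard error 0.12, adjusted p = 0.00666 from edgeR) and ACTA2 (-0.56, standard error 0.15, adjusted p = 0.0435 from edgeR). ACTA2 passed in 2 of 6 fits without 1 library (adjusted p from 0.0238 to 0.173), those without the first or second SLC replicate, and the count was 1 when the first or the third MLC replicate was left out. The sum, with TAGLN as the top gene (49.4%, also per kilobase), ranged from 3303 to 4639 CPM in SLC and from 2417 to 3893 CPM in MLC. Of 3 endothelial genes, VWF (1.06, standard error 0.27) and ERG (0.66, standard error 0.15) were higher in MLC, none was higher in SLC, and the median was 0.66. Neither passed without the third SLC replicate or any 1 of the MLC replicates, which left a count of 0 (adjusted p from 0.0209 to 0.148 for VWF and from 0.00154 to 0.0953 for ERG over the 6 fits). VWF also missed the threshold with the span trend removed (adjusted p = 0.0761). ERG, which chondrocytes also make, was 92.7% of a sum that ranged from 36.0 to 54.6 CPM in SLC and from 61.1 to 65.5 CPM in MLC, with EMCN at 0 and PECAM1, CDH5, KDR, TIE1 and CLDN5 under 1 CPM.

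Of the remaining lists, the Schwann cell list had 1 gene tested, S100B, also known from chondrocytes, which was higher in MLC (log2 fold change 1.39, standard error 0.13, adjusted p = 0.000570 from edgeR). S100B was 99.8% of a sum that ranged from 33.5 to 43.4 CPM in SLC and from 86.2 to 112 CPM in MLC. The skeletal muscle list had PAX7 as its only tested gene, which was 91.9% of a sum that ranged from 10.7 to 15.7 CPM in SLC and from 0.531 to 0.912 CPM in MLC, with MYOG at 0, MYOD1, MYF5, ACTA1 and DES under 1 CPM and ACTA1 as the top gene per kilobase. Neither of the 2 tested adipocyte genes passed (median 0.63), the sum ranged from 1.86 to 4.46 CPM over all libraries with PLIN1 as the top gene, and 1 gene was higher in MLC without the first IL-1β + LOXL2 replicate of SLC. The part of these cell types in the levels of the 9 genes was not tested beyond the values given.

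Between treatments in SLC, ASIP had its higher mean under the label IL-1β + LOXL2 and F13A1, ABI3BP, CDH2 and NR2F2 had lower means. The IL-1β libraries in this comparison are those that chose the genes, which favors lower values of genes high there (ABI3BP, NR2F2, PPL, ASIP) and higher values of genes low there, and the p-values and calls below are a description of the fit. The log2 fold changes were 0.95 for ASIP (standard error 0.27, interval from 0.32 to 1.59, adjusted p = 0.0706), -0.98 for F13A1 (0.31, -1.70 to -0.26, 0.0720), -0.69 for ABI3BP (0.19, -1.13 to -0.24, 0.0706) and -0.53 for CDH2 (0.13, -0.83 to -0.24, 0.0706), all from edgeR. NR2F2 had -0.36 (standard error 0.15, adjusted p = 0.1002 from edgeR). SMOC1 (-0.18), SPP1 (0.17) and PPL (0.01) had adjusted p-values of 0.257, 0.513 and 0.937 from edgeR. F13A1 passed the filter on low counts only through the IL-1β group, where it was high, on 45 counts against 26. GREB1 had too few counts in SLC to be tested. Groups did not overlap for 6 of the 8 tested genes, against 48.9% of all 14103 genes tested.

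None of the 8 genes passed the threshold in SLC, as none of all genes did (0 of 14103, or 0%, with edgeR). At an unadjusted p under 0.05 there were 5 of the 8 and 6108 of all genes, or 43.3%. With DESeq2's Wald test 4234 of 14103 genes passed. Among them were CDH2, ASIP and ABI3BP, 3 of the 7 that DESeq2 gave an adjusted p, F13A1 having none. In a fit on all 12 libraries 5965 of 14534 genes passed, with F13A1, CDH2, ASIP and ABI3BP among them, 4 of 9. Without the first IL-1β + LOXL2 replicate of SLC there were 8849 of 14334. CDH2 (-0.66), ASIP (1.19), NR2F2 (-0.51) and ABI3BP (-0.93) were among them, 4 of the 8. The other fits that left out 1 library gave 0. With the second left out, the values were smaller (CDH2 -0.47, ASIP 0.62, NR2F2 -0.23, ABI3BP -0.54). Calls of these genes in fits where many of all genes passed are not a result about them. A p that misses the threshold does not show that levels were equal.

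In MLC, GREB1 and ABI3BP had an adjusted p under 0.05 with lower levels under the label IL-1β + LOXL2, in a comparison with the IL-1β libraries that chose the genes. GREB1 was chosen for a high MLC level in those libraries, which favors a lower value in the others, and the p-values here are a description of the fit. GREB1 had a log2 fold change of -0.50 (standard error 0.12, interval from -0.76 to -0.24, adjusted p = 0.0220 from edgeR, lower in all 3 libraries). ABI3BP had -0.49 (standard error 0.15, interval from -0.83 to -0.16, adjusted p = 0.0407 from edgeR, lower in all 3 libraries). These 2 of 8 tested genes stood against 21.6% of 13664 genes past the threshold in either direction (2958 genes) and 11.8% lower. A share of 2 in 8 is near that of all genes and is not a result about these genes. F13A1 (-0.40), CDH2 (-0.28) and NR2F2 (-0.35) had adjusted p-values of 0.0519, 0.0747 and 0.101 from edgeR. SPP1 (0.05), PPL (0.04) and SMOC1 (-0.05) had 0.698, 0.762 and 0.734. ASIP had too few counts in MLC to be tested. Groups did not overlap for 4 of the 8, namely GREB1, SPP1, NR2F2 and ABI3BP, against 41.3% of all genes.

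The MLC calls changed with the libraries used, while the folds stayed negative (-0.62 to -0.40 for GREB1 and -0.72 to -0.35 for ABI3BP with 1 library left out). GREB1 passed in 2 of 6 fits that left out 1 library, those without the second replicate of IL-1β (adjusted p = 0.0493) and without the first of IL-1β + LOXL2 (5.12e-05), and over the 6 fits its adjusted p reached 0.108. ABI3BP passed in 1 (adjusted p = 3.43e-05), when the first IL-1β + LOXL2 replicate was left out, and reached 0.159. All MLC genes past the threshold numbered 0 without the first or the third replicate of IL-1β or the second of IL-1β + LOXL2, 822 without the second of IL-1β and 474 without the third of IL-1β + LOXL2. Without the first IL-1β + LOXL2 replicate of MLC they numbered 6653, and 5 of the 8 genes were lower, namely GREB1 (-0.62), F13A1 (-0.53), CDH2 (-0.39), NR2F2 (-0.52) and ABI3BP (-0.72). With so many of all genes past the threshold, these 5 calls are not a result about the genes. F13A1 passed as well without the second replicate of IL-1β, with DESeq2's Wald test and with no filter on low counts. In a fit on all 12 libraries no MLC gene passed, with 3728 at an unadjusted p under 0.05.

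Fold changes between treatments moved with gene span, introns included, in both layers (rank correlation of -0.49 across genes in SLC and in MLC), and the layer difference did so less (-0.12 with IL-1β and 0.07 with IL-1β + LOXL2). The interaction had 0.33. In single libraries, the rank correlation of the deviation from the mean of the 12 libraries with span was 0.34, 0.37 and 0.29 in SLC with IL-1β and 0.15, -0.37 and -0.34 with IL-1β + LOXL2. In MLC it was 0.22, 0.19 and 0.23 with IL-1β and 0.03, -0.31 and -0.35 with IL-1β + LOXL2, so that the first IL-1β + LOXL2 replicate of each layer lay between the others and the libraries with IL-1β. The 9 genes differ widely in span, from 6.98 kilobases for SPP1 and 13.6 for NR2F2 to 244 for CDH2 and 292 for ABI3BP. With the span trend removed, the SLC values were -0.27 for ABI3BP, -0.10 for CDH2, -0.58 for F13A1, -0.45 for NR2F2 and 0.95 for ASIP. In MLC they were -0.23 for GREB1 and -0.21 for ABI3BP, which no longer passed (adjusted p = 0.0851 and 0.214), -0.41 for NR2F2 and -0.12 for F13A1. SPP1, SMOC1 and, in MLC, CDH2 changed sign, as given with the alternatives. With the trend removed, the layer differences with IL-1β + LOXL2 passed for all 9 genes. The part of these library properties in the treatment differences was not tested.

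**Figure D3:**
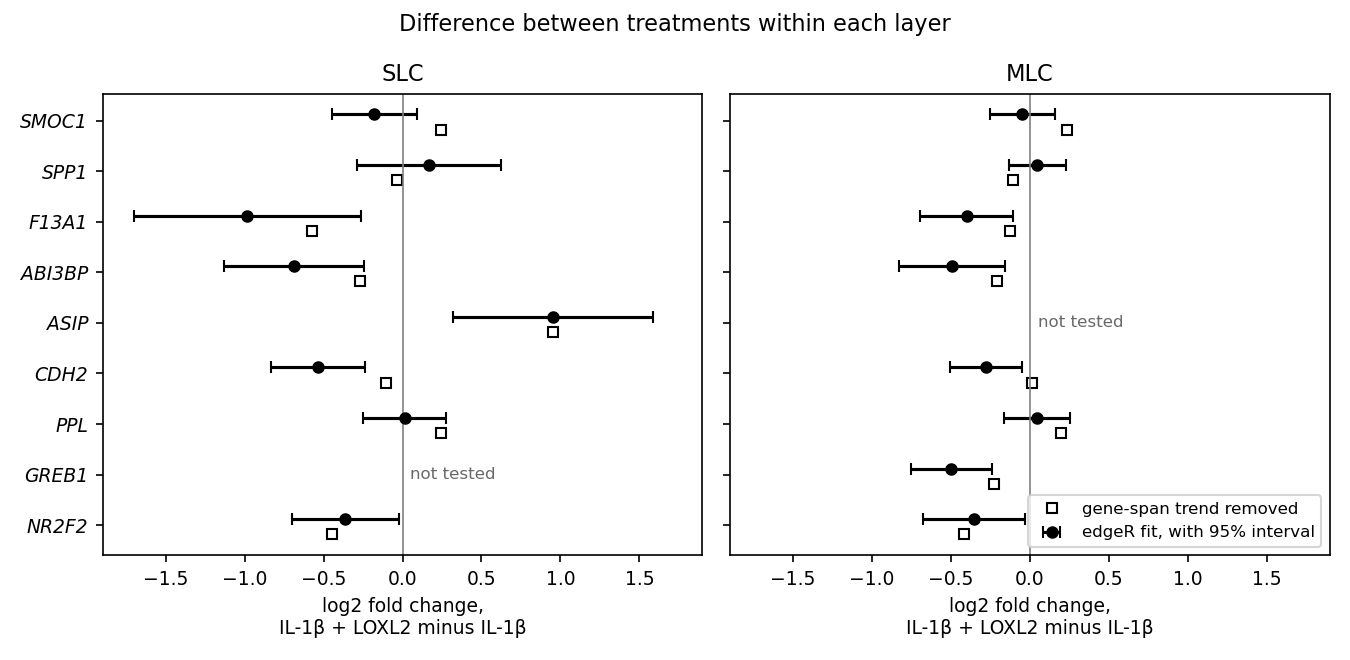
Log2 fold change of IL-1β + LOXL2 over IL-1β for each gene in SLC and in MLC (3 libraries per group), with filled points and 95% intervals from the edgeR fit and open squares after removal of the trend with gene span. GREB1 in SLC and ASIP in MLC had too few counts to be tested.

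Whether the treatment effect differed between the layers was asked with an interaction term over the 12 libraries, again with the IL-1β libraries that chose the genes. None of the 9 genes passed, and none of all 14534 genes did (0%, edgeR), with 328 genes at an unadjusted p under 0.05, none of the 9 among them. DESeq2's Wald test gave 0 and 304. The values of the 9 genes, MLC minus SLC, ranged from -0.58 for ASIP to 0.57 for F13A1, and the smallest unadjusted p was 0.119 from edgeR's fit across all genes, for F13A1. In SLC, GREB1 rests on 15 and 11 counts, and its interaction value of 0.12 had a standard error of 0.52. The IL-1β libraries chose the genes, so no conclusion on the lower MLC levels of GREB1 and ABI3BP is drawn from the interaction. Without the first IL-1β + LOXL2 replicate of SLC, 1 gene passed, LOC108634776 (-1.42, standard error 0.18, adjusted p = 0.0258 from edgeR), which is named after its value was seen. In that fit 3987 genes had an unadjusted p under 0.05 from edgeR, with 1 of the 9 genes among them.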

How the data were processed

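The counts of reads per gene were deposited by the authors in a table for each layer. The submitters' notes name HISAT2 for mapping to the goat genome ARS1.2 and featureCounts for counting, with strand and multimapping settings not given. Of 28910 genes, 26 have a date in place of a symbol, and 1783 that share a name were kept apart. All 12 libraries, with 14158607 to 28931652 counts, were used.

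The tests used R 4.3.3 with edgeR 4.0.16: TMM scaling, filterByExpr (minimum count 10, minimum total 15), glmQLFit and glmQLFTest, with Benjamini-Hochberg adjustment over all genes tested and a threshold of 0.05. Standard errors were obtained from each fold change and its F statistic. Libraries of the other treatment stayed out of the layer fits. Counting intervals are exact conditional binomial intervals (SciPy 1.17.1) that cover counting error only. The procedure was tested on simulated data. Same-numbered libraries count as paired where all 3 correlations of deviations exceed 0.1, as between the layers with IL-1β + LOXL2 (0.61, 0.21, 0.17) but not between treatments in SLC (0.03, -0.23, 0.12) or MLC (0.08, 0.11, -0.05).

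Alternatives were DESeq2's size factors, no filter, at least 10 counts in every library, DESeq2 1.42.0's Wald test, the replicate block, a gene-span trend as offset (lowess span 0.3, introns included), all 12 libraries in 1 fit, each library left out, and a minimum of 1 for the absolute log2 fold change. The 21 gene lists, 9 of relatives and 12 of cell type markers, were written from general knowledge. The 9 genes and the lists were chosen with earlier results of these data known. Other genes are named if they are among the 2 nearest profiles of a gene (log2 CPM with a prior count of 2), among the 3 of a list that differed most past the threshold between layers with IL-1β + LOXL2, or top or absent markers. Further list genes were chosen after their values were seen. Mouse libraries of the study were not used.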

Additional observations from a re-analysis of the deposited data

How the results depend on the processing

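The layer difference with IL-1β + LOXL2 kept its direction and its side of the threshold for all 9 genes in the 114 values computed under the alternatives, the 3 genes near the limit of detection having none with at least 10 counts in every library. Of 536 values for other named genes, 501 did so and 35 lost the call in the same direction, and of 588 list counts 97 moved. Genes past the threshold between layers numbered 1382 with a minimum of 1 for the absolute log2 fold change, 3887 with the replicate block, 4199 with all 12 libraries and 1140 to 4679 with 1 library left out. In SLC they numbered 4234 with DESeq2, 5965 with all 12 libraries and 0 to 8849 with 1 library left out, of which the 9 genes made up 3, 4 and 0 to 4. In MLC they numbered 141 with the same minimum for the absolute log2 fold change, 0 with all 12 libraries, and 0 to 6653 with 1 left out. The 9 genes made up 0 in MLC with the fold minimum, with the span trend removed and with all 12 libraries, 4 with the block, and 0 to 5 with 1 left out. Such counts, in fits where many of all genes passed, are not a result about the 9 genes. The block, for which the MLC numbers did not pair, gave 4053 genes in MLC and 0 in SLC. The interaction gave 0 to 1 genes with 1 library left out.

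With the span trend removed, directions reversed in SLC for SMOC1 (0.24) and SPP1 (-0.0366), in MLC for SMOC1 (0.23), SPP1 (-0.11) and CDH2 (0.0156), and in the interaction for SMOC1 (-0.00640), PPL (-0.0461) and NR2F2 (0.0341). The interaction of NR2F2 also reversed with DESeq2's size factors (0.0169), no filter (0.0134), the stricter filter (0.00175) and DESeq2 (0.0174). With 1 library left out, values ranged from -0.0644 to 0.31 for SPP1 and from -0.0683 to 0.0651 for PPL in SLC, and from -0.0837 to 0.0122 for SMOC1 in MLC. In the interaction they ranged from -0.27 to 1.00 for GREB1, -0.27 to 0.0910 for SPP1, -0.17 to 0.13 for NR2F2, -0.0343 to 0.0963 for PPL and -0.0454 to 0.41 for ABI3BP. None of these reversed values was past the threshold before or after. The cause was not tested.

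The low layer of GREB1, F13A1 and ASIP rests on 11 to 45 counts over 3 libraries, so their fold changes are imprecise. Levels of the 9 genes were not compared with each other. For other genes, shares of a list's sum are not corrected for length, and levels per kilobase use gene spans with introns in place of transcript lengths, so the top gene of a list is uncertain.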
